A study of Homo sapiens with 6 samples.

Results

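Long noncoding RNAs that are best known from work on tumors were followed by name through 6 RNA-seq libraries of a hepatocellular carcinoma (HCC) cell line with and without knockdown of MTR4. The 8 genes are MALAT1, NEAT1, HULC, H19, UCA1, PVT1, TUG1 and NORAD. They were listed by symbol and not by a cut on measured values, but earlier results of these data were known. Of these, 7 were matched to a counted Ensembl gene, among 60675 counted genes in all. All 7 passed the filter on low counts, as did 18075 genes in total, and HULC was not analysed here. The control group was 3 libraries of PLC/PRF5 cells, a human HCC line grown in DMEM with serum, and the MTR4 KD group was 3 libraries of the same line after silencing of MTR4. The study describes short hairpin RNAs from lentiviral vectors and an inducible version of the knockdown for its RNA-seq. The inducible version was switched on with doxycycline, and that RNA-seq compared cells before and after the drug. If these libraries are from that design, drug and knockdown cannot be told apart. The labels do not say which construct, clone or induction time each library had, or whether doxycycline was given. Nothing in the sources states that the 3 libraries of a group came from separate cultures, so p-values measure only the spread between these libraries.

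Long noncoding RNAs (lncRNAs) are transcripts that are not read into a known protein, and they act as RNA in chromatin, in nuclear bodies or in the cytoplasm. MALAT1 collects in nuclear speckles and NEAT1 builds the paraspeckles around it, whereas NORAD is mostly cytoplasmic and binds Pumilio proteins. H19 comes from an imprinted locus that is active in fetal liver and reappears in part of HCC, UCA1 and HULC were described in bladder cancer and liver cancer, PVT1 lies in a region that is often amplified in tumors, and TUG1 is widely expressed. MTR4 is the RNA helicase of the nuclear exosome, which trims and degrades many noncoding transcripts in the nucleus.

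The libraries held between 60686786 and 72708682 reads counted on genes. The gene MTREX, which encodes MTR4, was at 72.2, 87.4 and 74.4 CPM (counts scaled to library size with edgeR's TMM factors) in control replicates 1, 2 and 3, and at 44.6, 48.8 and 44.1 CPM in MTR4 KD replicates 1, 2 and 3. Every MTR4 KD library was below every control library for MTREX, with a log2 fold change of -0.77 (SE 0.0897, edgeR quasi-likelihood test, adjusted p = 0.00641). The libraries also fell into 2 sets that do not follow the groups. In control 1, control 3 and MTR4 KD 3, reads with more than one alignment made up 34.7 to 37.5% of the entries, and in control 2, MTR4 KD 1 and MTR4 KD 2 they made up 14.8 to 18.2%. The share discarded for low alignment quality was 1.62 to 1.66% in the first set and 5.61 to 5.73% in the second. The sources name no batch, so the 7 lncRNAs are given over all 6 libraries, with the library set as a covariate, and within each set. The 12 hepatocyte and HCC markers checked, ALB and APOB among them, were all tested and summed to 25835 to 27621 CPM per library. Of 6 stromal markers the 4 tested summed to 6.44 to 14.5 CPM, and of 4 endothelial markers the 1 tested, CDH5, reached at most 0.375 CPM. Among immune markers LYZ had 1496 to 2287 reads per library. PTPRC, CD3E, CD68, DCN, LUM, VWF and KDR were below the filter, with at most 109 reads in a library, and PECAM1 was not analysed here. In bulk RNA, fewer cells with a transcript and less of it per cell cannot be told apart.

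Of the 7 lncRNAs, 1 passed an adjusted p of 0.05 in the fit with condition alone, H19, which fell. Over all tested genes 3.6% passed, 2.12% lower and 1.48% higher in MTR4 KD, and 0.509% were lower with a fold change over 2, as H19 was. In the fit that also held the library set 4 of the 7 passed, against 20.2% of all tested genes. H19 was then lower, where 10.8% of all genes were, and NORAD, TUG1 and UCA1 were higher, where 9.43% were. At an unadjusted p under 0.05 with condition alone there were 4 of the 7, H19, NORAD, TUG1 and PVT1, against 18.8% of all tested genes. The 3 libraries of each group did not overlap for 4 of the 7, H19 and PVT1 on the low side and NORAD and TUG1 on the high side, and for 24.7% of all tested genes. The median log2 fold change was 0.16 over the 7 and 0.01 over all tested genes.

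**Figure D1:**
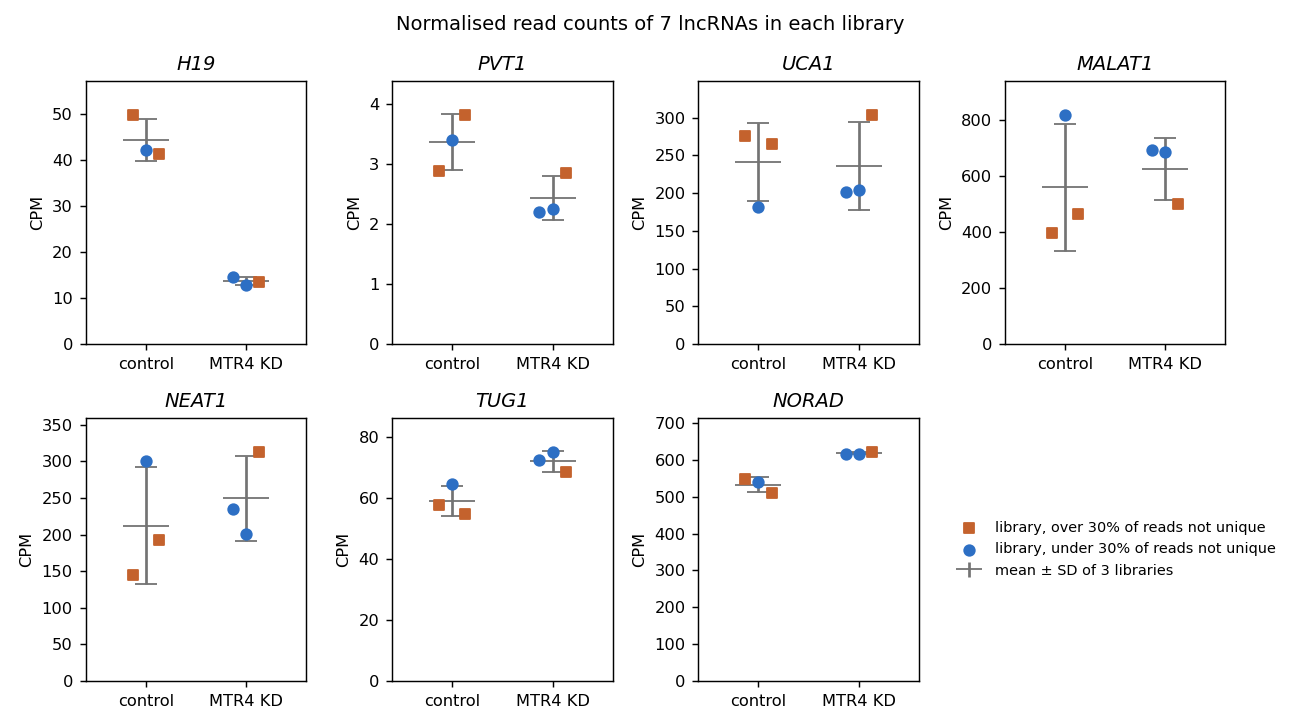
Normalised read counts (CPM, each vertical axis from 0) of 7 lncRNAs in 3 control and 3 MTR4 KD libraries, with the mean and SD of each group; squares are libraries with over 30% of reads not unique and circles those with under 30%. H19 separates the groups widely, while MALAT1 and UCA1 separate the squares from the circles instead.

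H19 gave the largest change of the 7. H19 (ENSG00000130600) lies on the minus strand at chr11:1995176-2001266 of GRCh38, as RefSeq places it. It was at 49.7, 42.3 and 41.3 CPM in the control libraries and at 14.6, 12.9 and 13.5 CPM in the MTR4 KD libraries. The lowest control library was well above the highest MTR4 KD library, and the spread within either group was small beside the gap. The means were 44.4 ± 4.59 and 13.7 ± 0.851 CPM (SD, n = 3), a 3.25-fold lower level with a log2 fold change of -1.70 (SE 0.0972, 95% interval -1.93 to -1.47, edgeR quasi-likelihood test, adjusted p = 0.000505). In the fit with the library set as a covariate it was -1.68 (edgeR adjusted p = 2.2e-08). It was -1.75 within the set with more non-unique reads and -1.62 within the other. In the raw files H19 had 3064, 3059 and 2491 reads in the controls and 896, 864 and 826 after the knockdown.

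H19 is also the host transcript of a microRNA, miR-675, whose hairpin lies within the H19 span at chr11:1996759-1996831 on the minus strand (RefSeq, GRCh38.p14). The hairpin sequence is found in 13 of the 31 H19 transcripts of the GENCODE annotation. The mature sequences are shown, 5′ to 3′, because they are the part of H19 that leaves the transcript as a separate regulator. The seed, bases 2 to 8, is in capitals, and the arms have different seeds. The count of H19 covers the whole gene, and the microRNA itself was not measured in these libraries.
hsa-miR-675-5p: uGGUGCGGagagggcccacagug
hsa-miR-675-3p: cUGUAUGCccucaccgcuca

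Among the 2607 tested genes that are annotated as lncRNA or belong to the 7, H19 had the 14th lowest log2 fold change and ranked 25 by mean control CPM. Of the 2606 annotated lncRNA genes, 28 rose and 19 fell in the fit with condition alone, and their median log2 fold change was 0.10, against 0.01 for all tested genes. These 47 calls are 1.80% of the lncRNA genes, where 3.6% of all tested genes passed. They became 227 with the library set as a covariate, 8.71% where 20.2% of all genes passed. Without MTR4 KD 1, MTR4 KD 2, control 1 or control 3 the lncRNA calls were 6, 5, 5 and 6. Calls over all tested genes fell there too, from 650 to 163, 137, 164 and 183. Without MTR4 KD 3 or control 2 the lncRNA calls were 34 and 46, with 622 and 803 over all genes. The lncRNAs with larger called decreases were scarcer than H19, such as SPRY4-AS1 at 0.539 CPM in controls (log2 fold change -2.58) and LINC01671 at 1.96 CPM (log2 fold change -2.09). These names were chosen after their values were seen.

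**Figure D2:**
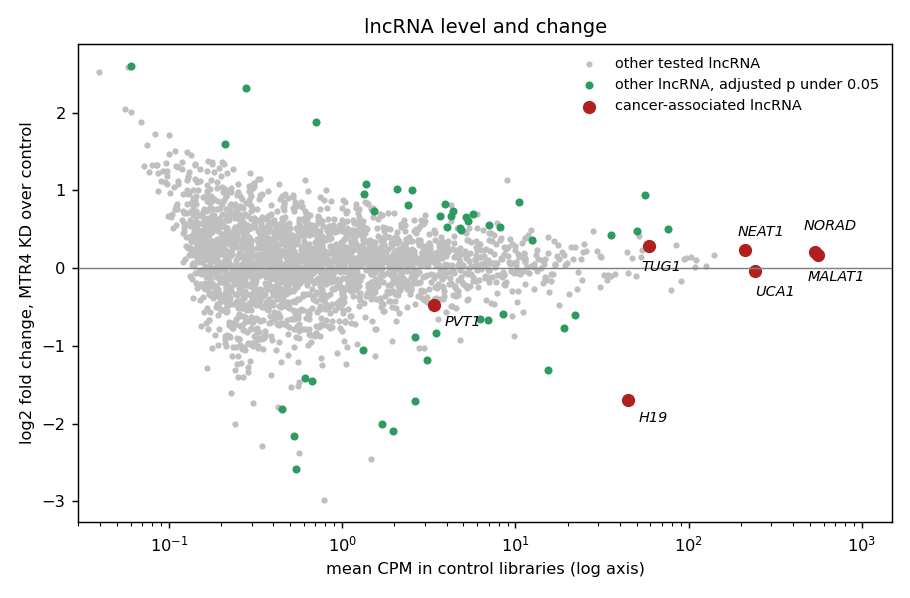
Mean CPM in the control libraries (log axis) against the log2 fold change in MTR4 KD for each tested lncRNA gene, with the 7 cancer-associated lncRNAs in red and other lncRNAs with an adjusted p under 0.05 in green. H19, at 44.4 CPM, stands well below the other points of its level, and MALAT1, NORAD, UCA1 and NEAT1 lie at the right edge near 0.

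The neighbours of H19 were looked at for the same change. IGF2, the fetal growth factor gene of the same imprinted domain, lies 127.851 kb away and was nearly silent, at 0.348 ± 0.130 CPM in controls and 0.347 ± 0.250 CPM in MTR4 KD (SD, n = 3), with a log2 fold change of -0.02 (edgeR adjusted p = 0.991). MRPL23, a mitochondrial ribosomal protein gene whose RefSeq span reaches over H19, was at 46.2 ± 14.3 and 38.2 ± 11.7 CPM (SD, n = 3). Its log2 fold change was -0.27 (edgeR adjusted p = 0.656) and -0.00 with the library set as a covariate. LSP1, on the other side, was at 1.04 ± 0.173 CPM and 0.377 ± 0.381 CPM (SD, n = 3), with a log2 fold change of -1.47 (edgeR adjusted p = 0.269). With the library set as a covariate LSP1 passed as lower (log2 fold change -1.32, edgeR adjusted p = 0.0297), at -0.45 within the set with more non-unique reads and -2.25 within the other.

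NORAD and TUG1 were both slightly more abundant in every MTR4 KD library. NORAD (ENSG00000260032, chr20:36045618-36050960, minus strand) is an abundant RNA that binds Pumilio proteins and is needed for stable chromosome numbers. It was at 547, 541 and 511 CPM in controls and at 617, 617 and 622 CPM in MTR4 KD. The groups did not overlap, and the MTR4 KD libraries lay very close together. The log2 fold change was 0.21 (SE 0.0557, 95% interval 0.08 to 0.34), which did not pass over all genes (edgeR, unadjusted p = 0.00595, adjusted p = 0.0973). It was also 0.21 with the library set as a covariate, and it passed (edgeR adjusted p = 0.00436), as a rise of 15.7%. The values within the sets were 0.23 and 0.19.

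The Pumilio sites of NORAD are shown because they are the part of the transcript through which it is known to act. The motif TGTANATA, searched on the transcript strand only in the GENCODE canonical transcripts, occurs 15 times in the 5401 bases of NORAD. It occurs 6 times in NEAT1, 2 times in TUG1 and not in those of H19, UCA1, MALAT1 and PVT1. Of all 2607 lncRNA transcripts compared, 11.0% hold it at least once, as do 22.6% of those of at least 2000 bases, and NORAD ranks 3 by number. Its 15 matches are 10 of TGTATATA, 4 of TGTAAATA and 1 of TGTACATA. A match of letters is a description of the transcript and not a measured binding site. An example of each kind, 5′ to 3′ with the motif in capitals, starts at base 1198, 1299 or 1509 of the transcript.
NORAD base 1198: ctcactactgTGTATATAgttgacaatg
NORAD base 1299: aatcacatttTGTAAATAcctttttgtt
NORAD base 1509: gtgtatatagTGTACATAaaggacagac

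TUG1 (ENSG00000253352, chr22:30969265-30979395, plus strand) is annotated as protein coding in GENCODE, although it is studied as a lncRNA. It was at 57.6, 64.4 and 54.6 CPM in controls and at 72.3, 74.9 and 68.3 CPM in MTR4 KD. Again no control library reached the lowest MTR4 KD library. The log2 fold change was 0.29 (SE 0.0787, 95% interval 0.10 to 0.47), short of the threshold over all genes (edgeR, unadjusted p = 0.00754, adjusted p = 0.109). Without control replicate 2, the highest control, it was 0.35 (edgeR adjusted p = 0.0394). Without any other single library it did not pass (edgeR adjusted p = 0.0921 to 0.336). After adjustment for the library set it was 0.24 and passed (edgeR adjusted p = 0.00299), a rise of 18.0%, with 0.28 and 0.19 within the sets. MORC2, a chromatin remodeler gene, lies 0.491 kb from TUG1 and was at 46.6 ± 2.99 and 48.5 ± 7.27 CPM (SD, n = 3, log2 fold change 0.06, edgeR adjusted p = 0.841).

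PVT1 (ENSG00000249859, chromosome 8, plus strand) was the scarcest of the 7. It was at 2.89, 3.41 and 3.81 CPM in controls and at 2.20, 2.26 and 2.85 CPM in MTR4 KD, from 135 to 247 reads per library. All MTR4 KD libraries were below all controls, but MTR4 KD 3 lay just under control 1. The log2 fold change was -0.47 (SE 0.168, 95% interval -0.86 to -0.07), which did not pass (edgeR, unadjusted p = 0.0265, adjusted p = 0.197). It did not pass with the library set as a covariate either (log2 fold change -0.42, edgeR adjusted p = 0.0751). The decrease was smaller in the set with more non-unique reads (-0.22) than in the other (-0.61), and the interaction of condition with library set gave an adjusted p of 0.706 in edgeR.

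UCA1 followed the library set more than the knockdown. UCA1 (ENSG00000214049, chr19:15828947-15836321, plus strand) was at 276, 182 and 265 CPM in controls and at 201, 204 and 303 CPM in MTR4 KD. The groups overlapped, and the 3 libraries with fewer non-unique reads were the 3 lowest. With condition alone the log2 fold change was -0.03 (SE 0.208, 95% interval -0.52 to 0.46, edgeR adjusted p = 0.954). The fit with the library set as a covariate gave 0.16 (SE 0.0400, 95% interval 0.07 to 0.25), a rise of 11.7% that passed (edgeR adjusted p = 0.0129), and it was 0.16 within each set. The set itself was associated with a 1.49-fold difference in UCA1 (edgeR adjusted p = 2.92e-07), where 31.5% of all tested genes passed for the set. LINC01764, annotated on the opposite strand of UCA1, had 18 to 33 reads per library against 12356 to 18574 for UCA1.

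**Figure D3:**
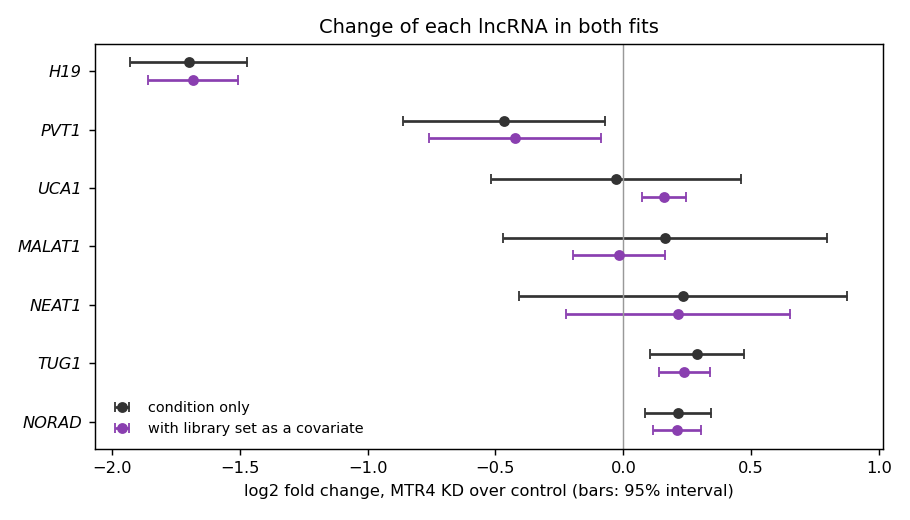
Log2 fold change of MTR4 KD over control with its 95% interval for each of the 7 lncRNAs, from the fit with condition alone (black) and with the library set as a covariate (purple). The interval of UCA1 narrows and moves from -0.03 to 0.16, while H19 stays near -1.7 in both.

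MALAT1 and NEAT1 lie 52.198 kb apart on chromosome 11, and neither differed between the groups beyond the spread of the libraries. MALAT1 (ENSG00000251562, chr11:65497738-65506516, plus strand) was at 396, 818 and 466 CPM in controls and at 695, 688 and 499 CPM in MTR4 KD. Control 2 was the highest library of all, and the 3 libraries with more non-unique reads were the 3 lowest. The log2 fold change was 0.16 (SE 0.270, 95% interval -0.47 to 0.80, edgeR adjusted p = 0.798). It was 0.54 without control replicate 2 (edgeR adjusted p = 0.104), and -0.02 with the library set as a covariate (95% interval -0.20 to 0.16, edgeR adjusted p = 0.922). MALAT1 was 1.62-fold lower in the set with more non-unique reads (edgeR adjusted p = 3.64e-05).

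NEAT1 (ENSG00000245532, chr11:65422798-65445540, plus strand) was at 144, 299.8 and 192 CPM in controls and at 235, 200.03 and 313 CPM in MTR4 KD. The groups overlapped, and control 2 and MTR4 KD 3 stood above the rest. The log2 fold change was 0.23 (SE 0.274, 95% interval -0.41 to 0.87, edgeR adjusted p = 0.705), and 0.21 with the library set as a covariate (95% interval -0.22 to 0.65, edgeR adjusted p = 0.514). When 1 library was left out it was between 0.019 and 0.56, highest without control replicate 2 (edgeR adjusted p = 0.159).

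Within the library sets NEAT1 differed in opposite directions. In the set with more non-unique reads the single MTR4 KD library, at 313 CPM, was above both controls, at 144 and 192 CPM, a difference of 0.91 on the log2 scale. In the other set both MTR4 KD libraries, at 235 and 200.03 CPM, were below the single control at 299.8 CPM, a difference of -0.47. An interaction of condition with library set, chosen after these values were seen, was 1.36 (SE 0.158, edgeR adjusted p = 0.000141). For MALAT1 the differences were 0.22 and -0.24, and the interaction was 0.45 (SE 0.0991, edgeR adjusted p = 0.0381). The same interaction passed for 0.974% of all tested genes and for none of the other 5 lncRNAs (edgeR, lowest unadjusted p = 0.211). This fit leaves 2 residual degrees of freedom, and each set holds 1 library of one of the groups, so library and interaction cannot be told apart.

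**Figure D4:**
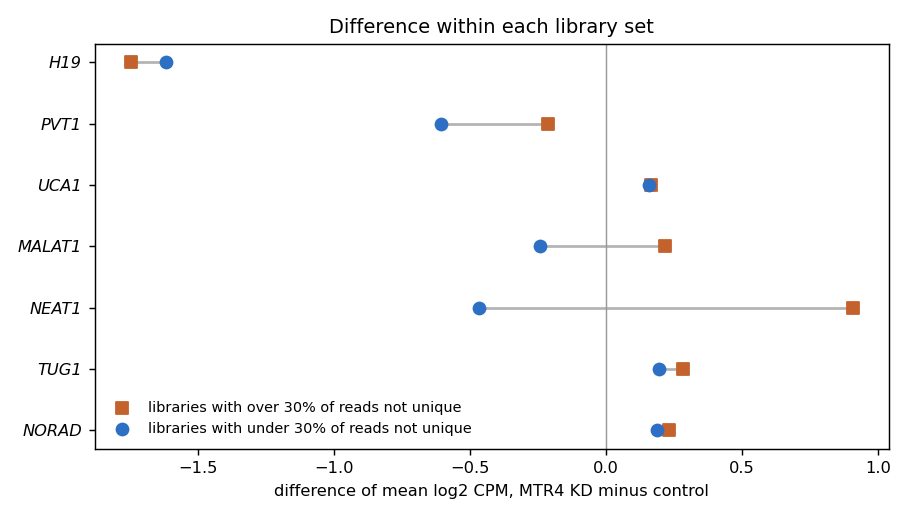
Difference of mean log2 CPM between MTR4 KD and control within each library set for the 7 lncRNAs; squares are the set with over 30% of reads not unique and circles that with under 30%. NEAT1 lies at 0.91 and -0.47 and MALAT1 at 0.22 and -0.24, on opposite sides of 0, and the other 5 keep 1 side.

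Annotated antisense transcripts overlap MALAT1 (1 gene) and TUG1 (2 genes), and all of these were at 0 counts in each of the 6 libraries. LINC02912, on the opposite strand of PVT1, had 0 to 6 reads per library. Whether the counting used strand is not given in the sources used here, and reads that overlap more than 1 gene were put in a class of their own, which held 5.89 to 8.29% of the entries.

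By CPM, MALAT1, NORAD, UCA1 and NEAT1 were the 4 highest of the 2607 lncRNAs in the control libraries, TUG1 ranked 16 and PVT1 ranked 351. These 7 together took 0.147 to 0.194% of the counted reads of a library. Per kilobase of all annotated exons, the control level was 98.8 CPM per kb for NORAD, 58.0 for UCA1, 53.7 for MALAT1, 12.8 for H19, 9.32 for NEAT1, 5.80 for TUG1 and 0.133 for PVT1. UCA1 and MALAT1 are neighbours in this order whose levels did not differ beyond the spread between libraries, since UCA1 varied 1.52-fold and MALAT1 2.07-fold over the controls. Per kilobase of the canonical transcript the order changed for the top pair, with UCA1 at 101.9 ± 21.8 and NORAD at 98.8 ± 3.58 CPM per kb (SD, n = 3), which also overlap. H19 was at 40.2 CPM per kb on that scale. Its canonical transcript of 1106 bases is shorter than the longest annotated one of 2396 bases. The level of PVT1 depended strongly on the length used. It was 1.38 CPM per kb on its canonical transcript of 2444 bases, against 0.133 over 25431 bases of annotated exons, the lowest of the 7 either way.

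Genes for the proteins around these RNAs gave no call with condition alone. None of the genes for 24 paraspeckle proteins or 17 nuclear speckle proteins passed in the fit with condition alone (edgeR). Nor did the 13 genes for cutting and stabilising the 3′ ends of MALAT1 and NEAT1, or the 12 reported protein partners. Over all tested genes 3.6% passed there, and at that share lists this short can hold few calls or none. The median log2 fold changes of the 4 lists were -0.01, 0.13, 0.07 and 0.04, against 0.01 for all tested genes. At an unadjusted p under 0.05 in edgeR there were 3 paraspeckle, 7 nuclear speckle, 0 3′ end and 0 partner genes, where 18.8% of all tested genes were. DESeq2 called 1 nuclear speckle gene, against 6.54% of all genes it tested, and limma-voom called 0 genes of the 4 lists, against 3.38% of all. Leaving out control replicate 2 gave 3 nuclear speckle genes, where 803 genes were called in all, against 650 with all libraries. When the library set was a covariate, where 20.2% of all genes passed, 9 of the 17 nuclear speckle proteins did, 7 higher and 2 lower. Of these, SRSF6, a splicing factor gene, was at 158 ± 16.0 and 199 ± 7.97 CPM (SD, n = 3, log2 fold change 0.28 in that fit, edgeR adjusted p = 0.00134). SON, a scaffold of the speckle, had a log2 fold change of 0.20 (edgeR adjusted p = 0.00877), and RNPS1, an exon junction protein, one of -0.16 (edgeR adjusted p = 0.0206). Of the paraspeckle proteins 2 were higher and 3 lower in that fit, with PSPC1, a core paraspeckle protein, at -0.31 (edgeR adjusted p = 0.000684). Of the 3′ end genes 2 were higher and 0 lower, and of the protein partners 0 passed. The proteins named here were chosen after their values were seen.

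Other lncRNAs with a history in cancer gave 3 calls. Of 51 listed, 32 were tested, and 2 rose and 1 fell in the fit with condition alone, with a median log2 fold change of -0.04. The 3 calls are 9.38% of those tested, against 3.6% of all tested genes. DANCR, which is known for holding back differentiation, rose from 50.5 ± 3.83 to 70.2 ± 2.89 CPM (SD, n = 3, log2 fold change 0.47, edgeR adjusted p = 0.0173). LINC00261, a lncRNA beside the liver transcription factor gene FOXA2, rose from 76.3 ± 3.35 to 107.9 ± 0.664 CPM (SD, n = 3, log2 fold change 0.50, edgeR adjusted p = 0.00662). CASC15 fell from 8.42 ± 0.882 to 5.59 ± 0.435 CPM (SD, n = 3, log2 fold change -0.59, edgeR adjusted p = 0.0400). Leaving out MTR4 KD replicate 2 ended all 3 calls, with edgeR adjusted p-values of 0.0859, 0.0541 and 0.177. Over all tested genes 137 were called in that fit, against 650. DANCR also lost its call without MTR4 KD replicate 1 (edgeR adjusted p = 0.102) or control replicate 3 (0.108). CASC15 kept its call only without control replicate 2, and without another library its edgeR adjusted p was 0.0674 to 0.177. DESeq2 called 7 of the 32, against 6.54% of all genes. The fit with the library set called 10 of the 32, 5 in each direction and 31.2% of them, against 20.2% of all genes. In it DANCR, LINC00261 and CASC15 were called, with log2 fold changes of 0.50, 0.49 and -0.54.

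Within 200 kb of the 7 lncRNAs, 41 genes were tested and 2 passed with condition alone, both higher and both cytochrome P450 genes of the cluster around UCA1. These 2 are 4.88% of the 41, against 3.6% of all tested genes, a share near the background. CYP4F3 was at 82.0 ± 1.62 and 107.2 ± 6.70 CPM (SD, n = 3, log2 fold change 0.39, edgeR adjusted p = 0.0249). CYP4F12, the nearest tested gene before UCA1, was at 11.0 ± 0.708 and 16.4 ± 2.28 CPM (SD, n = 3, log2 fold change 0.58, edgeR adjusted p = 0.0451). CYP4F2, the nearest after it, was at 1.02 ± 0.198 and 0.915 ± 0.0948 CPM (SD, n = 3, log2 fold change -0.16, edgeR adjusted p = 0.772). Both calls were lost without control replicate 1 or 3 and without MTR4 KD replicate 1 or 2, each of which left 0 of the 41 called (edgeR, adjusted p from 0.0945 to 0.194 for both genes). Calls over all tested genes fell from 650 to between 137 and 183 in these fits. Without control replicate 2 the count among the 41 was 5, and without MTR4 KD replicate 3 it was 3. Over all genes 803 and 622 were called there. With the library set as a covariate the count among the 41 was 12, 6 in each direction and 29.3% of them, against 20.2% of all genes. CYP4F3 and CYP4F12 were among these 12, with log2 fold changes of 0.41 and 0.60.

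The nearest tested genes reported for the other loci did not pass with condition alone. Beside NEAT1, FRMD8, at 102.4 ± 13.8 and 81.6 ± 1.72 CPM, and FAUP4, a pseudogene between NEAT1 and MALAT1, at 55.9 ± 3.89 and 46.1 ± 2.91 CPM (SD, n = 3), had log2 fold changes of -0.33 and -0.28 (edgeR adjusted p = 0.142 and 0.113). Both passed as lower with the library set as a covariate, at -0.26 and -0.23 (edgeR adjusted p = 0.0145 and 0.00712). Reads of FAUP4 can be shared with its parent gene, so its count is uncertain. SMTN, after TUG1, had a log2 fold change of -0.08 (edgeR adjusted p = 0.858), and CNBD2 and EPB41L1, beside NORAD, had log2 fold changes of 0.14 and -0.08 (edgeR adjusted p = 0.785 and 0.800). SMTN, CNBD2 and EPB41L1 did not pass with the library set either (edgeR adjusted p = 0.516, 0.970 and 0.608).

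The gene whose log2 CPM followed a lncRNA most closely over the 6 libraries, among 12861 genes with a mean of at least 100 counts, was DSCC1 for H19 (Pearson r = 0.999), EPS8L3 for PVT1 (r = 0.990), SF1 for UCA1 (r = 0.999), BCL10 for MALAT1 (r = 0.999), SNHG12 for NEAT1 (r = 0.969) and DNAJB9 for NORAD (r = 0.996). These are descriptions of 6 points that share group, library set and depth. NEAT1 had the lowest of these values.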

How the data were processed

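RNA was measured by RNA-seq in 3 control and 3 MTR4 KD libraries of PLC/PRF5 cells. The authors deposited raw read counts per Ensembl gene for each library, with the classes of uncounted reads, and the submitters' processing notes name HISAT2 2.1.0, HTSeq, DESeq2 and GRCh38. The strand setting and the RNA selection are not given in the sources used here. Uncounted entries, 37.7 to 49.3% of a file, stayed out of library sizes.

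The members and lists were chosen with earlier results of these data known. Symbols, exon lengths and transcripts came from GENCODE 44 lifted to GRCh37, which held 56959 of 60675 gene IDs, and positions from RefSeq (GRCh38.p14). Genes were kept by filterByExpr (minimum 10 counts), scaled by TMM and tested with edgeR 4.0.16 (quasi-likelihood, condition only, Benjamini-Hochberg over all tested genes, two-sided) in R 4.3.3. A gene was called at an adjusted p under 0.05. CPM are counts over the TMM-scaled library size. Alternatives used limma 3.58.1 (voom), DESeq2 1.42.0, other scalings and filters, a replicate block, the library set (over or under 30% of entries not unique) as a covariate and each library left out in turn. The interaction and the library-set term were added after the data were seen. Within-set values are differences of mean log2 CPM (prior count 2) with no test. Libraries of a group differed by more than sampling noise. The fit was also run on simulated counts that held no library-set effect, so that run does not bear on the library sets. Tables were made in Python 3.11.15 (pandas 2.3.3) and plots with matplotlib 3.10.9.

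Named genes were all members, MTREX, each member's nearest tested gene on either side, tested genes within 200 kb that were called, up to 3 called genes per list and direction, and the most correlated gene of each member. Some genes that this rule names are not reported here.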

Additional observations from a re-analysis of the deposited data

How the results depend on the processing

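Across 14 alternatives, H19 stayed past the threshold with log2 fold changes from -1.75 to -1.61 (largest edgeR, limma or DESeq2 adjusted p = 0.00849), and MTR4 from -0.82 to -0.68. The reversals were in UCA1 and MALAT1. UCA1 was 0.16 with the library set as a covariate and between -0.25 and 0.079 when 1 library was left out. MALAT1 was -0.0159 with the library set as a covariate and between -0.0332 and 0.54 when 1 library was left out. The number of the 7 lncRNAs called was 4 with the library set, and 1 to 2 when 1 library was left out, TUG1 joining without control 2. The replicate numbers are not stated to pair libraries, and the correlations of same-numbered deviations were -0.240, 0.325 and 0.352. With the replicate block 2 of the 7 were called, H19 and TUG1 (edgeR adjusted p = 0.0489), and 4 neighbours, with 857 genes called in all against 650. TUG1 was past the threshold in 3 alternatives, NORAD and UCA1 in 1 each, and PVT1, MALAT1 and NEAT1 in none.

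For the lists, the library set as a covariate gave 5 paraspeckle, 9 nuclear speckle and 2 3′ end genes, 10 other cancer lncRNAs, 12 neighbours and 227 lncRNAs called, against 0, 0, 0, 3, 2 and 47. DESeq2's Wald test gave 1 nuclear speckle gene, 7 other cancer lncRNAs and 85 lncRNAs, and limma-voom 1 neighbour. Over all tested genes the fit with the library set, DESeq2 and limma-voom called 3649, 1143 and 611, against 650 with condition alone. Leaving out 1 library gave 0 to 3 nuclear speckle genes, 0 to 4 other cancer lncRNAs, 0 to 5 neighbours and 5 to 46 lncRNAs. Calls over all genes ranged from 137 to 803 in these leave-out fits. Fewer libraries were fitted there.

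With 3 libraries a group, changes the size of those in NORAD and TUG1 sat at the edge of what passed. PVT1 rested on 135 to 247 reads, the fewest of the 7. The share of reads with no unique place moved with MALAT1 and UCA1. The library-set term also passed for TUG1, 1.11-fold lower in the set with more non-unique reads (edgeR adjusted p = 0.0226). For MTREX it was 1.13-fold lower there (edgeR adjusted p = 0.0271). That term did not pass for H19, PVT1, NEAT1 or NORAD, and passed for 31.5% of all tested genes. What part the share of such reads had in these values was not tested.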
